A study of Mus musculus with 39 samples.

Results

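Polyadenylated RNA of mouse brain was compared between 4 libraries whose treatment label is RTR113609 and 5 whose label is RTR113643, 9 of the 39 libraries of a series on antisense oligonucleotides (ASOs) against Tmem106b. The members were chosen by the treatment label alone. Both labels are codes with no ASO number: the labels give no stated target, dose, time, age, sex, genotype or batch, and oligonucleotide sequences were not used here. Another group, of 5 libraries labelled saline, gave the reference level. All of these libraries share the tissue label brain, although RNA is described as extracted from pelleted cells, and no region is named. Whether libraries came from separate animals is not stated either, so p-values measure only the spread between libraries, which may be technical. That spread was estimated over all 39 libraries of the series. Snap25, a synaptic fusion protein of neurons named after its values were seen, stood at 3411 ± 333 CPM (SD, n = 4) in RTR113609, 3628 ± 212 CPM (SD, n = 5) in RTR113643 and 3267 ± 186 CPM (SD, n = 5) in saline.

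ASOs are short modified nucleic acid strands, and those with a DNA gap recruit RNase H1 to cleave the transcript they pair with. Tmem106b encodes a lysosomal membrane protein that is studied beside progranulin in frontotemporal dementia. Cells that sense foreign nucleic acid or interferon switch on a set of interferon-stimulated genes through transcription factors of the STAT and IRF families, and brain cells of many types can do so. Neurons also express a set of very long genes, many of them for synaptic adhesion, whose pre-mRNA is mostly intron and takes long to transcribe.

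Levels are given as CPM, counts divided by the TMM-scaled total of the library, with the standard deviation (SD) over libraries. Library totals of the 9 ranged from 28.5 to 37.3 M (mega) counts. Replicate numbers in the text count the libraries of each group in the order of the samples in the series, and are not part of the labels. The first principal component of the 9 libraries held 23.6% of their variance and placed all 4 RTR113609 libraries on one side and all 5 RTR113643 libraries on the other. RTR113643 replicate 1 stood apart in Pmch, the precursor of melanin-concentrating hormone and a marker of hypothalamic neurons, with 19.1 CPM against 0.121 to 0.818 CPM in the other 8 libraries. Pmch was named after its values were seen. Results that lead the text were also fitted without that library, and the total of called genes was then 757.

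The first comparison asked how far each treatment left the transcript named as the target. Tmem106b (ENSMUSG00000029571, chr6:13069759-13089269, plus strand, GRCm38) stood at 55.0, 72.1, 88.7 and 57.0 CPM in the 4 RTR113609 libraries and at 99.1, 70.6, 93.8, 105.7 and 116.5 CPM in the 5 RTR113643 libraries. RTR113609 replicate 3 was the highest of its group and RTR113643 replicate 2 the lowest of its own, and the groups overlapped through these libraries. All 9 lay below the saline mean of 191.9 ± 15.6 CPM (SD, n = 5). The difference between the treatments was a log2 fold change of -0.51 (SE 0.14, 95% confidence interval -0.80 to -0.22, edgeR adjusted p = 0.024), with RTR113609 the lower, and the log2 fold changes against saline were -1.49 and -0.98. The call ended in 5 of 16 alternative analyses: with only the 9 libraries in the fit (-0.51, adjusted p = 0.0621), without RTR113609 replicate 1 (-0.42, adjusted p = 0.142) or replicate 4 (-0.43, adjusted p = 0.103), and without RTR113643 replicate 4 (-0.47, adjusted p = 0.0582) or replicate 5 (-0.43, adjusted p = 0.0792).

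Grn, the gene of progranulin, had 107.9, 122.9, 103.2 and 114 CPM in RTR113609 and 110.3, 128.8, 108, 114.7 and 92.2 CPM in RTR113643. The groups lay on top of each other, and the log2 fold change was 0.016 (SE 0.11, 95% confidence interval -0.20 to 0.23, edgeR adjusted p = 0.963). The paralogs Tmem106a (0.19, SE 0.17, adjusted p = 0.647) and Tmem106c (0.13, SE 0.05, adjusted p = 0.151) did not pass the threshold. No partner of progranulin on a list of 10 such genes passed other than Tmem106b itself, which is on that list and was lower. None of 17 vacuolar ATPase subunits passed, and of 44 lysosomal genes Galc (-0.31, adjusted p = 6.15e-06) and Manba (-0.28, adjusted p = 0.0212), which encode enzymes that degrade galactosylceramide and mannosides, were lower. Over all tested genes 3.34% were lower, and the lysosomal count of 2 is near that share. Manba lost its call in 4 of 16 alternative analyses.

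**Figure D1:**
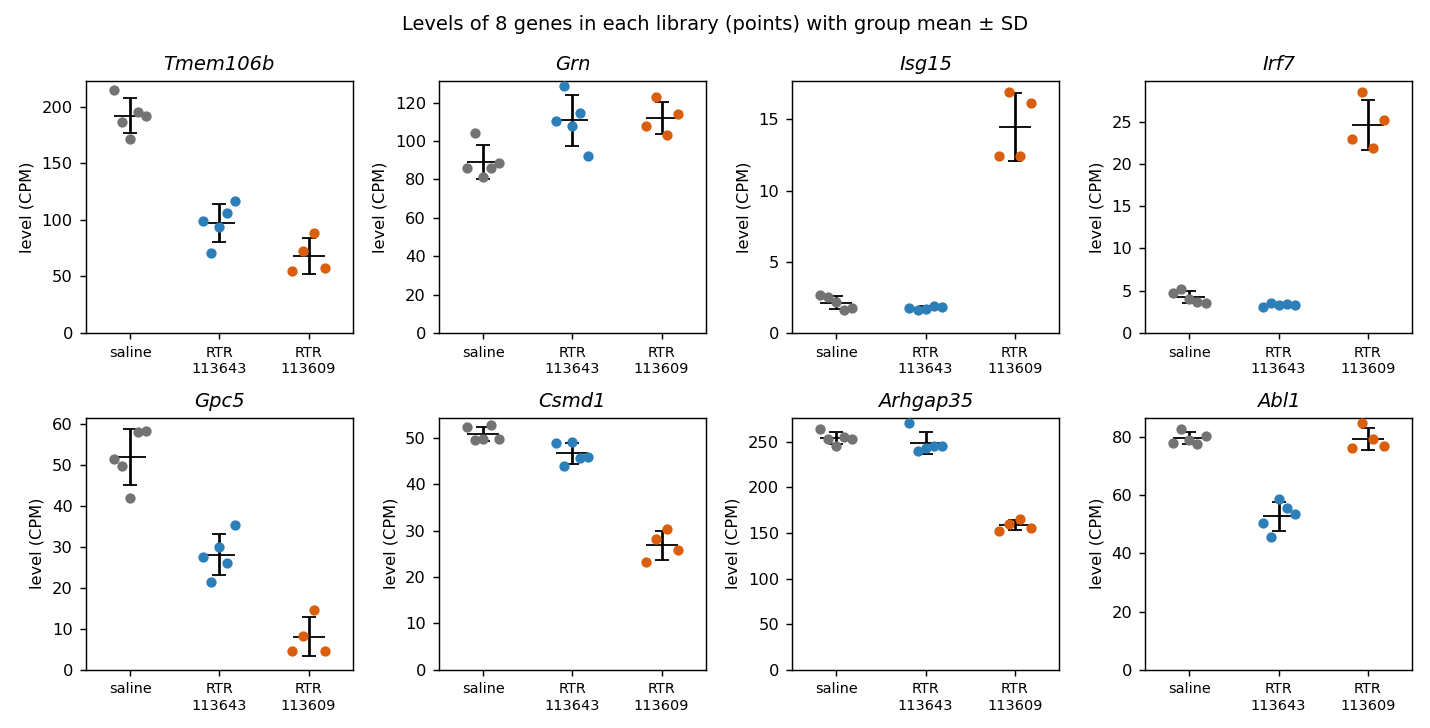
Level (CPM, linear axis from 0) of 8 genes in each library, as points, for saline, RTR113643 and RTR113609, with the group mean and SD in black. Isg15 and Irf7 stood above the other groups in all 4 RTR113609 libraries, Gpc5 fell from saline to RTR113643 to RTR113609, and Abl1 was low in RTR113643 alone among the 3 groups drawn.

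Across the 19246 genes tested, 1019 (5.29%) differed between the treatments at an adjusted p below 0.05 in edgeR's quasi-likelihood test. That count was 664 without RTR113609 replicate 1 and 640 with only the 9 libraries in the fit. Of the 1019, 377 (1.96%) were higher in RTR113609 and 642 (3.34%) were lower. The rises were larger than the falls: 96 of the higher genes and 21 of the lower ones changed at least 2-fold, and the median log2 fold change was 0.54 among the higher genes and -0.28 among the lower ones, against 0.0017 over all tested genes. The libraries of the groups did not overlap in 740 of the 1019 genes, and in 1287 (6.69%) of all tested genes. In bulk tissue, fewer cells of a type and less RNA per cell cannot be told apart, and this holds for every result below. Since the labels give no batch, a batch shared with a treatment cannot be told apart from it.

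Set against the same 5 saline libraries, RTR113609 had 1294 called genes (6.72%), of which 454 (2.36%) were higher and 840 (4.36%) lower, and RTR113643 had 93 (0.483%), of which 15 (0.0779%) were higher and 78 (0.405%) lower. Of the 377 genes higher in RTR113609 than in RTR113643, 205 were also called above saline in RTR113609, 25 were called below saline in RTR113643, and 3 of the 25 were called below saline in RTR113609 too. Of the 642 lower genes, 453 were called below saline in RTR113609, 14 were called below saline in both treatments, and 3 were called above saline in RTR113643. Both comparisons with saline share the saline libraries, and each also shares its treated libraries with the comparison between the treatments. Part of these overlaps therefore follows from the shared libraries, and the values are given side by side only.

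**Figure D2:**
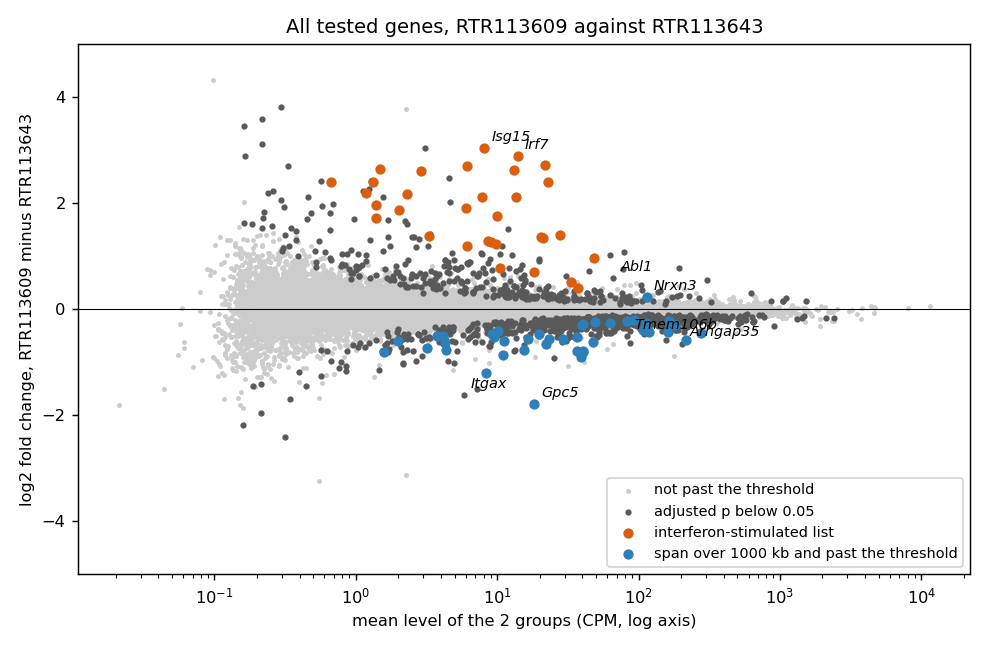
Log2 fold change of RTR113609 against RTR113643 (y axis) over the mean level of both groups (x axis, CPM, log axis) for all 19246 tested genes. Genes past the threshold are dark, the interferon-stimulated genes (orange) all lie above 0, and the genes spanning over 1000 kb that passed (blue) lie below 0 except Nrxn3.

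Of the 12 largest rises, 9 were on a list of 32 interferon-stimulated genes. All 32 members were higher in RTR113609, with log2 fold changes from 0.40 (Cmpk2) to 3.03 (Isg15) and a median of 1.89, and in none did the libraries of the treatments overlap. The summed level of the list was 548 to 583 CPM in the 4 RTR113609 libraries, 209 to 230 CPM in the 5 RTR113643 libraries and 214 to 248 CPM in the 5 saline libraries. Against saline, all 32 were called higher in RTR113609 (median log2 fold change 1.90) and none was called in RTR113643 (median -0.071). The count of 32 held in all 16 alternative analyses, including those without each library in turn.

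Isg15 (ENSMUSG00000035692, chr4:156199424-156200818, minus strand), a ubiquitin-like protein that is joined to other proteins during an interferon response, had 12.4, 16.9, 12.4 and 16.1 CPM in RTR113609 and 1.79, 1.63, 1.70, 1.90 and 1.82 CPM in RTR113643. Every RTR113609 library was far above every RTR113643 library, and the log2 fold change was 3.03 (SE 0.16, edgeR adjusted p = 4.72e-17). Cxcl10, a chemokine that draws activated T cells, had 4.82, 4.95, 6.21 and 6.12 CPM in RTR113609 and 0.716, 0.524, 0.312, 1.30 and 0.475 CPM in RTR113643. Its level in RTR113643 varied more between libraries but stayed below all of RTR113609 (3.03, SE 0.34, adjusted p = 2.11e-08). Usp18, the protease that removes Isg15 from its targets, reached 10.6 ± 0.255 CPM (SD, n = 4), while RTR113643 had 1.62 ± 0.279 CPM (SD, n = 5), and the log2 fold change came to 2.70 (SE 0.21, adjusted p = 5.47e-12).

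Of the transcription factors of the pathway, Irf7, which amplifies interferon production, had 22.9, 28.5, 21.9 and 25.2 CPM in RTR113609 and 3.08, 3.61, 3.33, 3.41 and 3.30 CPM in RTR113643. The groups stood well apart (2.88, SE 0.17, edgeR adjusted p = 3.52e-16). Ifnar1, a chain of the type I interferon receptor named after its values were seen, stood at 44.6 ± 0.772 CPM (SD, n = 4) and 45.8 ± 2.36 CPM (SD, n = 5), and its log2 fold change of -0.037 (SE 0.044, adjusted p = 0.75) did not pass. The 21 interferon ligand genes together had 2 counts over the 4 RTR113609 libraries, 2 over the 5 RTR113643 libraries and 3 over the 5 saline libraries, so their transcripts were not detectable at this depth in any of the groups.

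**Figure D3:**
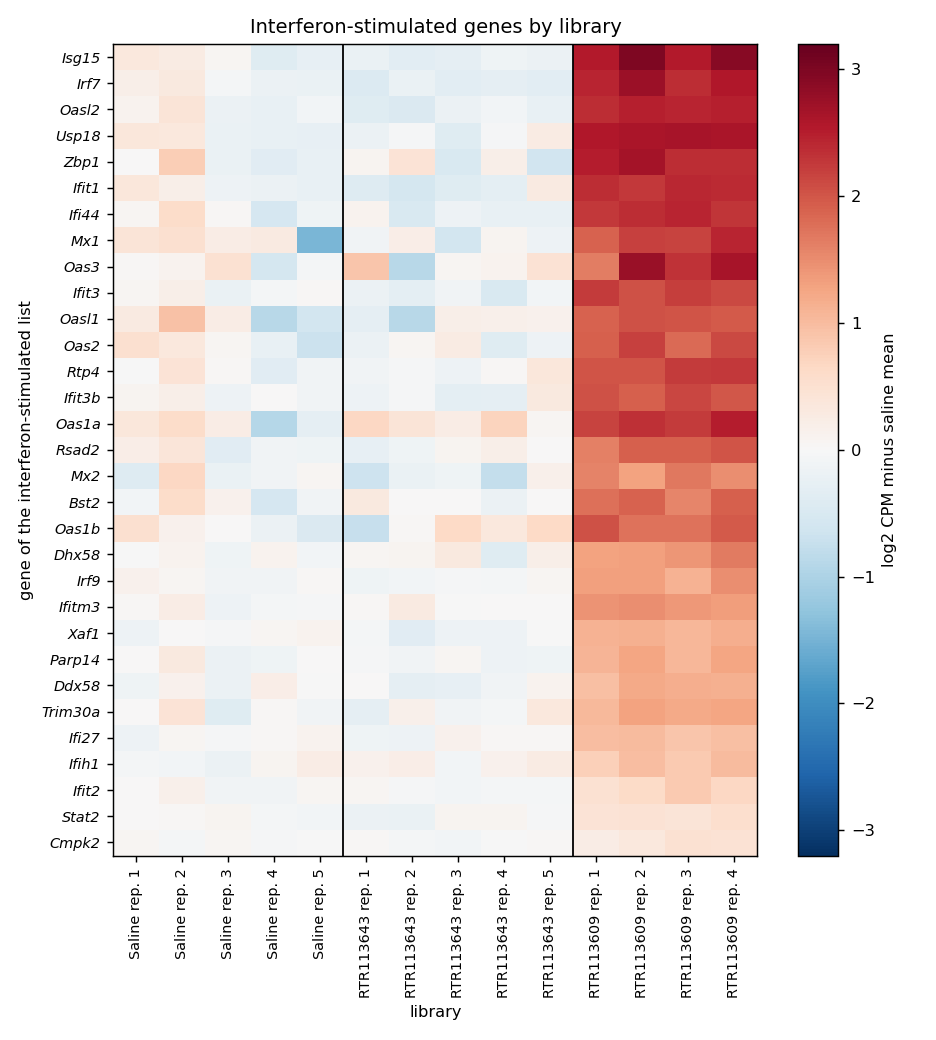
Heat map of 31 of the 32 interferon-stimulated genes (rows, ordered by fold change) in 14 libraries (columns), coloured by log2 CPM minus the saline mean of the gene. Values in RTR113609 ran from 0.25 to 2.98, and those in RTR113643 from -0.89 to 0.90, while the saline libraries ran from -1.46 to 0.93.

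Effectors that act on viral RNA were among the 12 largest rises. Ifit1, which binds RNA lacking the methylated cap of host mRNA, had 22.8, 21.2, 23.7 and 22.9 CPM in RTR113609 and 3.28, 2.96, 3.29, 3.50 and 5.37 CPM in RTR113643. RTR113643 replicate 5 was the highest of its group and still far below RTR113609 (2.62, SE 0.18, edgeR adjusted p = 3.03e-14). Oas3, an enzyme that makes oligoadenylate on double-stranded RNA to activate RNase L, had 0.643, 1.45, 1.04 and 1.34 CPM in RTR113609 and 0.358, 0.0616, 0.173, 0.181 and 0.252 CPM in RTR113643. Its log2 fold change was 2.39 (SE 0.35, adjusted p = 5.98e-06), with wide spread at a low level. Oasl2, a relative of these enzymes, was higher by a log2 value of 2.72 (with SE 0.14, adjusted p = 2.46e-17), and Mx1, a GTPase of the myxovirus resistance family, by 2.39 (SE 0.33, adjusted p = 1.80e-06). Ifit3 rose by 2.39 (SE 0.12, adjusted p = 3.33e-17), although reads of Ifit3 and its near copy Ifit3b could be exchanged. The remaining largest rises were Zbp1 (2.65), a sensor of left-handed nucleic acid, Ifi44 (2.60), Ifi27l2a (2.47) and Phf11d (2.42).

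The promoters of 4 of these genes are shown because each holds the motif GAAANNGAAA, the core of the interferon-stimulated response element to which complexes with IRF factors bind. Each is the 300 bases from 250 before to 50 after the gene start, from RefSeq on GRCm38.p6, written 5′ to 3′ along the gene's strand, with the letters of the motif in capitals on either strand (matches on the other strand read TTTCNNTTTC).
Isg15, chr4:156200769-156201068, minus strand: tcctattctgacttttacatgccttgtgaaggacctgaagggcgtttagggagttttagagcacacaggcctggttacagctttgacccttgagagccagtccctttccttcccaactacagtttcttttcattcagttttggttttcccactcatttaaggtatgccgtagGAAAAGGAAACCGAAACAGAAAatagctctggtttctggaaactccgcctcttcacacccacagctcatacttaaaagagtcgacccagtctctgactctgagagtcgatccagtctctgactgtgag
Ifit1, chr19:34640639-34640938, plus strand: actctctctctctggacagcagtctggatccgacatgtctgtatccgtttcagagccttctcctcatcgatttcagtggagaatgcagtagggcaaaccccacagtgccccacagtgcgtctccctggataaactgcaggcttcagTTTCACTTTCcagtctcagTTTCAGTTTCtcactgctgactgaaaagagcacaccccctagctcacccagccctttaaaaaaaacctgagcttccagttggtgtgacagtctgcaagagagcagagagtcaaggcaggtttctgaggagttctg
Cxcl10, chr5:92348840-92349139, minus strand: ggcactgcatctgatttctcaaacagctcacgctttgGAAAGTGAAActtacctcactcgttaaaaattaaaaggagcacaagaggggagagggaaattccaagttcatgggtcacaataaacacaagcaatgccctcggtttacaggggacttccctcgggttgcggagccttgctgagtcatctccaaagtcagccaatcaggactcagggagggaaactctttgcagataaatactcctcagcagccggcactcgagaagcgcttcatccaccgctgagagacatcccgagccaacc
Oas3, chr5:120777610-120777909, minus strand: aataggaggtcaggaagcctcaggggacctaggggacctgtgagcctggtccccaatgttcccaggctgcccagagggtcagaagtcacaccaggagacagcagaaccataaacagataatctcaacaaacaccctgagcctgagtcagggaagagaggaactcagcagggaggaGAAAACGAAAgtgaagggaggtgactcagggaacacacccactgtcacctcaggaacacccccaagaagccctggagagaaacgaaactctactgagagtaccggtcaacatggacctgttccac

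The match nearest the gene start began 66 bases before it in Isg15, where 3 matches overlapped, 85 bases before it in Ifit1, which had 2 matches, 75 in Oas3 and 213 in Cxcl10. Of the 12 largest rises, 8 had a window in the table, and 4 of those 8 windows held the motif, which are the 4 shown. Among 331 windows of genes higher in RTR113609, 18.4% held it, against 3.26% of 675 windows of the lower genes, 3.05% of 16592 windows of all tested genes and 3.44% of all 32851 windows. The share was 58.3% of 24 windows for the interferon-stimulated list, 90% of 10 windows for the guanylate-binding proteins and GTPases and 23.5% of 17 windows for MHC class I. The palindrome TTCNNNGAA, to which STAT dimers bind and which can overlap the first motif, was in 11.8% of windows of the higher genes, 6.22% of those of the lower genes and 6.76% of those of all tested genes. A match describes these letters only and is no measure of binding, and a gene can have several windows.

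GTPases and antigen presentation genes rose with them. Of 13 guanylate-binding proteins and immunity-related GTPases, which attack membranes around intracellular microbes, 10 were higher, none was lower, and the median log2 fold change was 1.00. Gbp3 had 16.2, 17.2, 19.0 and 18.1 CPM in RTR113609 and 5.28, 6.41, 6.83, 5.92 and 6.52 CPM in RTR113643, with no overlap (1.51, SE 0.10, edgeR adjusted p = 2.16e-14). Igtp (1.02, adjusted p = 3.13e-11) and Irgm1 (0.91, adjusted p = 2.95e-10) were higher as well, and Iigp1 rose by 2.03 (adjusted p = 7.72e-09). The members that did not pass were Gbp4 (0.57), Tgtp1 (0.72) and Tgtp2 (1.00), of which the last pair are near copies that can exchange reads.

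Of 18 genes of MHC class I and peptide loading, 14 were higher and none was lower, with a median log2 fold change of 0.69. B2m, the light chain of class I molecules, had 237, 256, 238 and 243 CPM in RTR113609 and 132, 154, 158, 141 and 122 CPM in RTR113643. All 4 of the first group lay above all 5 of the second (0.78, SE 0.10, edgeR adjusted p = 6.39e-07). Tap1, which pumps peptides into the endoplasmic reticulum, rose by 1.05 (SE 0.13, adjusted p = 1.48e-07), and H2-T23, a class I chain whose reads could be shared with other H2 genes, by 0.64 (SE 0.085, adjusted p = 8.67e-07). Nlrc5, the transactivator of class I genes, named after its values were seen, rose by 1.33 (adjusted p = 7.75e-05). None of 7 MHC class II genes passed (median 0.33, adjusted p from 0.22 to 0.77).

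Of the 14 nucleic acid sensors found in the files, 5 were higher and none was lower: Zbp1, Dhx58 (1.38), Ddx58 (1.23), Ifih1 (0.77) and Eif2ak2 (0.74). Zbp1, Dhx58, Ddx58 and Ifih1 are also on the interferon-stimulated list, so of these 5 only Eif2ak2 adds to that result. Over all tested genes, 1.96% were higher. Ddx58, Ifih1 and Dhx58 form the family of cytoplasmic RNA helicase sensors, and Eif2ak2 is the kinase that halts translation on double-stranded RNA. Ifih1 and Eif2ak2 were named after their values were seen. The Toll-like receptors Tlr7, Tlr8 and Tlr9 and the DNA sensor Cgas did not pass, with adjusted p from 0.26 to 0.96.

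Among 14 chemokines, 5 were higher and 3 lower, with a median of -0.10. Besides Cxcl10, the higher ones were the monocyte attractants Ccl12 (2.12, SE 0.27, edgeR adjusted p = 3.26e-07), Ccl7 (1.71, adjusted p = 0.002) and Ccl2 (1.81, adjusted p = 0.00221), and Ccl5 (1.5, adjusted p = 0.035), the last pair named after their values were seen. Ccl7 was near the floor, with means of 0.34 CPM in RTR113609 and 0.10 CPM in RTR113643 and 1 to 16 counts per library. Ccl2 had means of 0.75 and 0.21 CPM, and its groups overlapped. The lower ones were Ccl6, and, also named after their values were seen, Cxcl12 (-0.36) and Cxcl14 (-0.19). Of 11 complement genes tested, C4b (1.01, SE 0.15, adjusted p = 1.33e-05) and the inhibitor Serping1 (0.41, adjusted p = 0.0294) were higher and 1 gene was lower. Serping1 lost its call in 6 of 16 alternative analyses, each of them without 1 library. C1qb, a subunit of the first component named after its values were seen, was level between the treatments (135 ± 6.74 CPM, SD, n = 4, and 137 ± 27.3 CPM, SD, n = 5) and above the saline mean of 91.3 ± 14.4 CPM (SD, n = 5), by a log2 fold change of 0.57 in RTR113609 and 0.59 in RTR113643.

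Markers of blood cells that could carry interferon-stimulated transcripts were counted beside these rises. Of 12 T cell and monocyte markers, 6 had enough counts to be tested, and none of the 6 passed (median 0.17). Their summed level was 43.8 to 56.4 CPM in RTR113609, 36.9 to 45.6 CPM in RTR113643 and 41.9 to 49.1 CPM in saline. Most of that sum was Cd4, named after its values were seen, with a mean of 41.6 CPM in RTR113609, 34.6 CPM in RTR113643 and 38.0 CPM in saline. Of the others, Trbc2 had a mean of 7.30 CPM in RTR113609 and 6.97 CPM in RTR113643, and Cd8a, Ccr2, S100a8 and S100a9 each had a mean below 1 CPM in both. The other 6 markers together had 88 counts over the 4 RTR113609 libraries and 54 over the 5 RTR113643 libraries, or 14 to 32 and 8 to 16 per library, and 73 over the 5 saline libraries, or 5 to 30 per library. Their part in the result was not tested.

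Very long genes were lower more often than shorter ones. The genes lower in RTR113609 had a median span of 126 kb between the first and the last base of the gene, against 12.9 kb for the higher genes and 18.6 kb for all tested genes. Of 57 tested genes spanning over 1000 kb, 40 (70.2%) were lower and 1 was higher, against 3.34% of all tested genes lower, and 34 of the 40 had no overlap between the libraries. These 57 genes lay on 20 chromosomes. The share lower was 0.989% below 10 kb, 1.58% from 10 to 30 kb, 2.93% from 30 to 100 kb, 8.18% from 100 to 300 kb and 31.5% from 300 to 1000 kb (158 of 502 genes). The median log2 fold change went from 0.030 in the shortest class to -0.15 from 300 to 1000 kb and -0.44 over 1000 kb. Among protein-coding genes with a mean of at least 10 CPM, 30 of 42 genes over 1000 kb (71.4%) were lower. Of the 12 largest falls, 3 (Gpc5, Gpc6 and Nkain2) spanned over 1000 kb, and the median span of the 12 was 146 kb. The split by span was chosen after the data were seen.

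**Figure D4:**
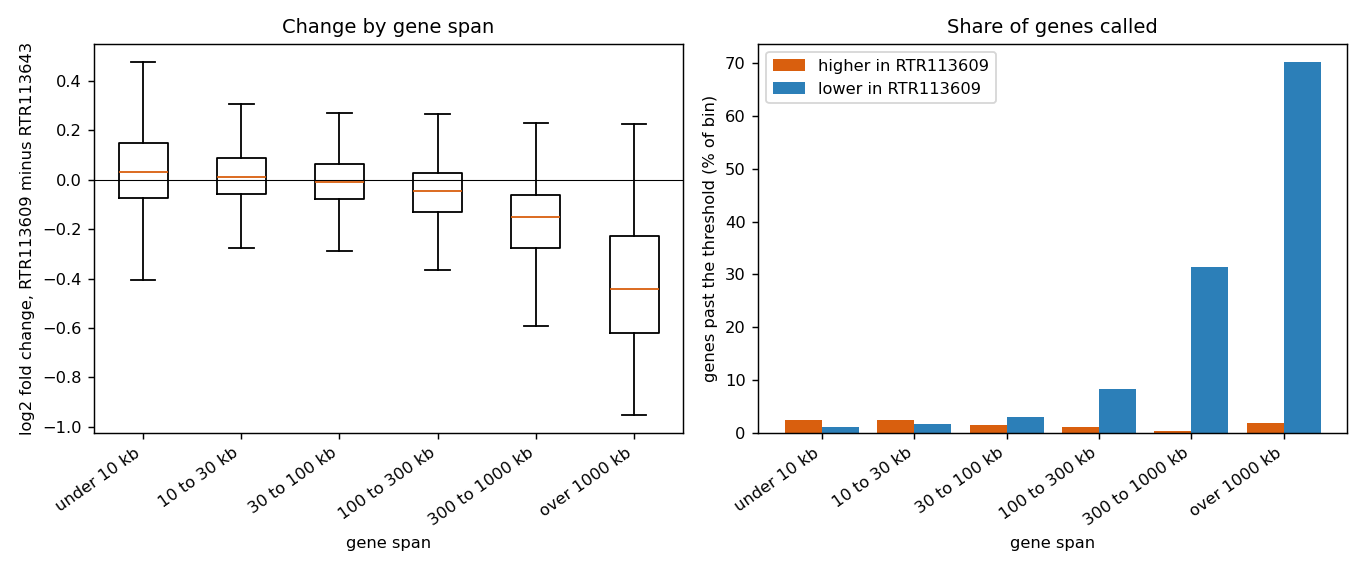
Left, log2 fold change of RTR113609 against RTR113643 by class of gene span, with the median in orange, the quartiles as a box and whiskers to the farthest gene within 1.5 box lengths (genes beyond are not drawn). Right, the share of each class past the threshold, where the share of lower genes was 0.989% in the shortest class and 70.2% in the longest.

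Gpc5 (ENSMUSG00000022112, chr14:115092215-116525179, plus strand), a glypican that holds growth factors at the cell surface, showed the largest fall. It had 4.59, 8.22, 14.7 and 4.64 CPM in RTR113609 and 27.7, 21.6, 29.97, 26.2 and 35.4 CPM in RTR113643, with 52.0 ± 6.81 CPM (SD, n = 5) in saline. RTR113609 replicate 3 was the highest of its group, as it was for Tmem106b, and still below all of RTR113643. The log2 fold change was -1.79 (SE 0.18, edgeR adjusted p = 3.81e-09), and both treatments lay below saline (-2.67, adjusted p = 6.26e-14, in RTR113609 and -0.89, adjusted p = 0.000638, in RTR113643). Gpc6, a neighbouring glypican gene on the same chromosome and strand (chr14:116925315-117976544), had 4.59, 4.95, 6.04 and 4.33 CPM in RTR113609 and 13.4, 10.1, 12.2, 11.3 and 10.9 CPM in RTR113643. Here the RTR113643 libraries were near the saline mean of 13.1 ± 0.866 CPM (SD, n = 5), and the log2 fold change between treatments was -1.21 (SE 0.093, adjusted p = 1.71e-12).

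Of a list of 20 very long neuronal genes, 16 were lower and 1 was higher, with a median of -0.41. Csmd1, a membrane protein that limits complement, had 23.2, 28.1, 30.3 and 25.8 CPM in RTR113609 and 48.9, 43.9, 49.2, 45.6 and 45.9 CPM in RTR113643. Macrod2, an enzyme that removes ADP-ribose from proteins, had 24.9, 30.5, 33.8 and 27.7 CPM against 54.3, 46.1, 49.1, 52.1 and 53.6 CPM. In both genes every RTR113609 library was lower than every RTR113643 library, and the log2 fold changes were -0.80 for each (SE 0.060 and 0.075, edgeR adjusted p = 1.07e-12 and 4.00e-10). Immp2l, a mitochondrial inner membrane peptidase subunit (-1.01, SE 0.17, adjusted p = 5.47e-05), and Nkain2 (-0.91, SE 0.084, adjusted p = 2.78e-10) fell alike. The members of the list that did not pass were Wwox (-0.32), Dlg2 (-0.13) and Pcdh9 (-0.049).

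The library medians over the 57 longest genes, as log2 CPM minus the saline mean, were -0.73, -0.67, -0.50 and -0.71 in RTR113609 and -0.017, -0.27, -0.18, -0.17 and -0.13 in RTR113643. All 4 of the first group were below all 5 of the second. RTR113609 replicate 3, with the most Tmem106b, was the least lowered of its group, and RTR113643 replicate 2, with the least Tmem106b, the most lowered of its own. The order did not hold throughout. RTR113643 replicate 5 had the most Tmem106b of its group (116.5 CPM), but replicate 1 (99.1 CPM) was the least lowered. This is a description of 9 libraries, and no relation was tested. Over the same 57 genes the median log2 fold change against saline was -0.69 in RTR113609 and -0.14 in RTR113643, with 46 and 9 genes called lower.

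**Figure D5:**
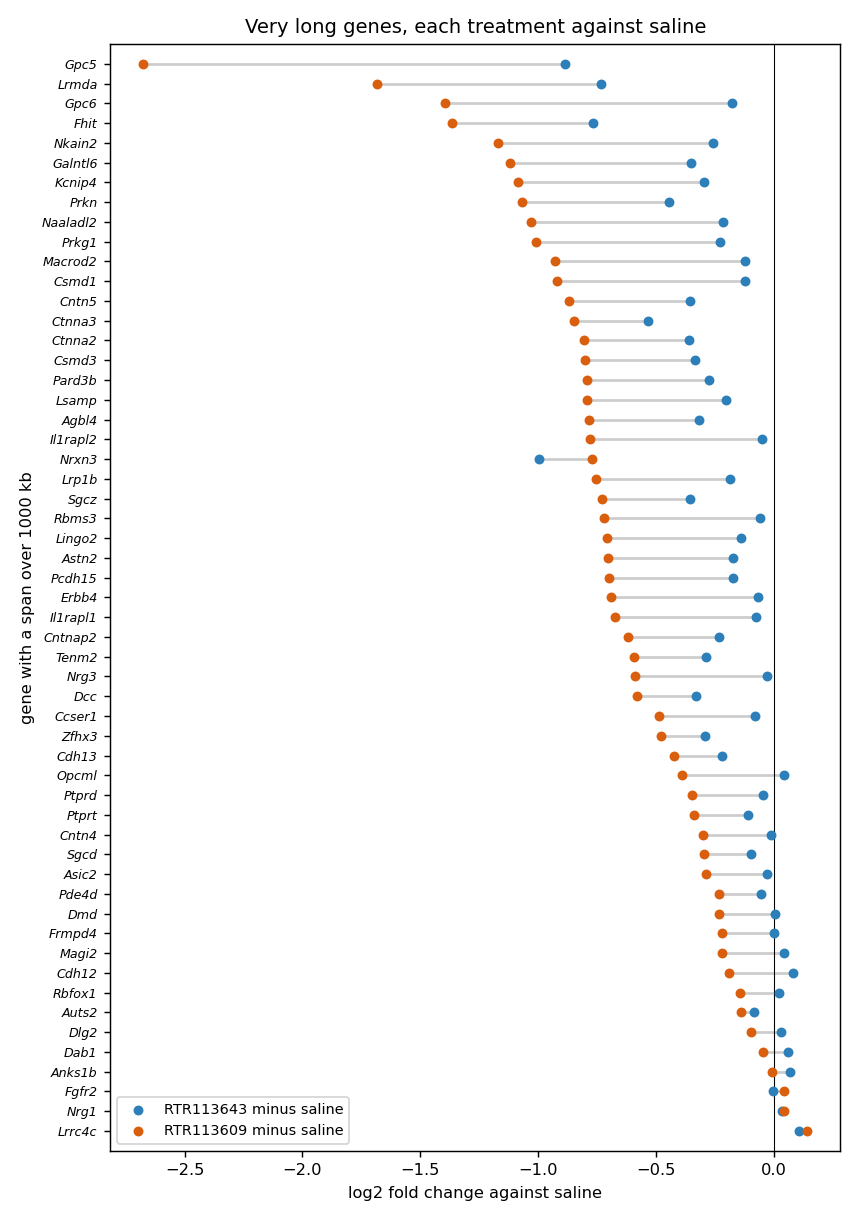
Log2 fold change against saline (x axis) of 55 of the 57 tested genes spanning over 1000 kb (rows) in RTR113643 (blue) and RTR113609 (orange), joined by a grey line. The difference between the treatments was negative in 51 of the 55 rows, from Gpc5 at -2.67 and -0.89 downward, and Nrxn3 was the 1 gene called higher.

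Nrxn3, a presynaptic adhesion protein that spans 1612 kb, was the 1 very long gene that was higher in RTR113609. It had 113, 121, 136 and 121 CPM in RTR113609 and 103, 89.8, 103, 119.7 and 109.5 CPM in RTR113643, and the groups overlapped. Both stood below the saline mean of 209.5 ± 10.3 CPM (SD, n = 5), with log2 fold changes of -0.77 and -0.996, and the difference between them was 0.23 (SE 0.068, edgeR adjusted p = 0.0426). That call ended in 9 of 16 alternative analyses, among them the fit of the 9 libraries alone (0.23, adjusted p = 0.101) and those without RTR113643 replicates 1, 2 or 3 (adjusted p = 0.0887, 0.16 and 0.0745) or RTR113609 replicates 2, 3 or 4 (adjusted p = 0.0773, 0.194 and 0.0699).

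Of 12 neurexin, neuroligin and partner genes 1 was higher and 2 were lower, against 1.96% and 3.34% of all tested genes. Nlgn1, the postsynaptic partner of neurexins, had 53.7, 58.2, 60.05 and 59.3 CPM in RTR113609 and 81.2, 73.8, 77.4, 76.9 and 75.8 CPM in RTR113643. The groups did not overlap, and RTR113643 was near the saline mean of 77.9 ± 2.76 CPM (SD, n = 5; -0.41 between the treatments, SE 0.074, edgeR adjusted p = 0.000157).

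Some members of other lists of neuronal adhesion and excitability were lower too, where 3.34% of all tested genes were lower. Of 11 catenins and cadherins 4 were lower and none was higher. Ctnna2, which links cadherins to actin, had 94.6, 97.9, 111.5 and 94.9 CPM in RTR113609 and 141, 118, 138, 139 and 141 CPM in RTR113643, below the saline mean of 174 ± 6.80 CPM (SD, n = 5) in both (-0.44 between the treatments, SE 0.058, edgeR adjusted p = 7.28e-07). Ctnnd2 (-0.20, adjusted p = 7.77e-05), Cdh13 (-0.20, adjusted p = 0.0318) and Cdh2, named after its values were seen, made up the 4. Of 10 AMPA and NMDA receptor subunits 3 were lower: Gria4 (-0.41, SE 0.048, adjusted p = 9.18e-08), Grin2c (-0.49, SE 0.070, adjusted p = 5.20e-06) and Grin2a (-0.31, SE 0.074, adjusted p = 0.00547). Of 5 KCNQ channels, which carry the M current that restrains firing, Kcnq3 (-0.35, adjusted p = 4.24e-05) and Kcnq5 (-0.31, adjusted p = 0.0141) were lower. Ctnna2 and Cdh13 spanned over 1000 kb, a class in which 70.2% of genes were lower. Ctnnd2, Gria4, Grin2a, Kcnq3 and Kcnq5 spanned 300 to 1000 kb, a class with 31.5% lower, while Grin2c spanned 18.1 kb. Whether these counts go beyond those of the span classes was not tested. Cdh13 lost its call in 4 of 16 alternative analyses, and Grin2a and Kcnq5 in 1 each, without RTR113609 replicate 3 and replicate 1.

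Other falls were in genes spanning less than 1000 kb. Arhgap35, a GTPase-activating protein that switches off small GTPases, and Mmp24, a membrane-bound metalloproteinase, were named after their values were seen. Arhgap35 (chr7:16493719-16614993, minus strand) had 152, 160.1, 165 and 156 CPM in RTR113609 and 270.3, 239.8, 243, 245 and 245 CPM in RTR113643. The groups were far apart relative to their spread, and RTR113643 matched the saline mean of 254 ± 6.93 CPM (SD, n = 5) within about its SD (-0.65 between the treatments, SE 0.035, edgeR adjusted p = 4.72e-17). Mmp24 had 38.5 ± 2.22 CPM (SD, n = 4) in RTR113609 and 53.03 ± 0.918 CPM (SD, n = 5) in RTR113643 (-0.46 on the log2 scale, SE 0.038, adjusted p = 1.64e-11). Among the 12 largest falls, Otof, a calcium sensor for vesicle fusion (-0.93, adjusted p = 1.33e-06), Smyd1, a methyltransferase known from muscle (-0.99, adjusted p = 0.000314), the transcription factor Glis3 (-1.01, adjusted p = 2.38e-07) and Cyp3a13, a cytochrome P450 (-1.16, adjusted p = 0.00353), were lower than in RTR113643 and called below saline in RTR113609.

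In a few of the falls the mean of RTR113643 lay above saline. Itgax, the integrin CD11c of activated microglia, had 2.25, 4.05, 1.92 and 3.17 CPM in RTR113609 and 10.2, 11.03, 10.3, 7.34 and 4.84 CPM in RTR113643. RTR113609 lay around the saline mean of 3.81 ± 1.32 CPM (SD, n = 5) and RTR113643 above it, with replicate 5 the lowest (-1.62 between the treatments, SE 0.35, edgeR adjusted p = 0.00217, and 1.19 against saline in RTR113643, adjusted p = 0.072). Ccl6, a chemokine of myeloid cells, was 3.01 ± 0.351 CPM (SD, n = 4) against 5.99 ± 1.52 CPM (SD, n = 5), a log2 fold change of -0.99 (adjusted p = 0.0189) that lost its call in 4 of 16 alternative analyses. Hist1h1e, a linker histone, was 1.42 ± 0.135 CPM (SD, n = 4) against 2.87 ± 1.19 CPM (SD, n = 5), and was called above saline in RTR113643 (1.11, adjusted p = 0.00754).

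Lists of glial and other cell types held fewer calls than the interferon genes. Over all tested genes 1.96% were higher and 3.34% were lower. Of 24 genes of disease-associated microglia, a state described around plaques, B2m was higher and Itgax, Cst7 and Ccl6 were lower, with a median of -0.31. Against saline the median of the list was 0.057 in RTR113609 and 0.43 in RTR113643, and no member was called in RTR113643. The list median of RTR113609 was thus the nearer to saline. Cst7, a cystatin named after its values were seen, ranged from 3.69 to 14.6 CPM in RTR113643, and its call (-1.51, edgeR adjusted p = 0.037) was within overlapping groups. Against saline Cst7 was at -0.059 in RTR113609 and 1.45 in RTR113643, neither of them called. The number of members past the threshold ranged from 2 to 7 over the alternative analyses. It was 2 without RTR113643 replicate 1 or 2 and without RTR113609 replicate 3 or 4, and 7 without RTR113643 replicate 5. Of 12 homeostatic microglia genes, Siglech, a lectin (26.1 ± 0.750 CPM, SD, n = 4, against 19.5 ± 1.02 CPM, SD, n = 5; 0.43, adjusted p = 1.20e-06), and Tmem119 (0.25, adjusted p = 0.00806) were higher and Selplg was lower (-0.27, adjusted p = 0.0068). The border macrophage genes F13a1, the coagulation factor XIII A chain (-1.15, SE 0.20, adjusted p = 9.24e-05), and Stab1 (-0.37, adjusted p = 0.0218) were lower among 9, and Stab1 lost its call in 3 of 16 alternative analyses.

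Of 12 astrocyte genes, 5 were lower, none was higher and all 12 had a negative log2 fold change, with a median of -0.25. The bicarbonate transporter Slc4a4 had 153, 165, 176 and 169.7 CPM in RTR113609 and 223, 211, 189, 199 and 243 CPM in RTR113643. The groups did not overlap, and RTR113643 was near the saline mean of 219 ± 13.99 CPM (SD, n = 5; -0.36 between the treatments, SE 0.064, edgeR adjusted p = 0.000159). The gap junction protein Gjb6 (-0.43, adjusted p = 0.000808) and the receptor Fgfr3 (-0.28, adjusted p = 0.000188) fell, as did Gja1 (-0.34) and the water channel Aqp4 (-0.42), both named after their values were seen. Of 12 oligodendrocyte precursor genes, 3 were lower: the matrix proteoglycan Vcan (-0.53, SE 0.057, adjusted p = 1.42e-08), the sialidase Neu4 (-0.49, adjusted p = 0.000476) and the receptor Gpr17 (-0.36, adjusted p = 0.00144). Of 19 myelin genes Cnp was lower (-0.28, adjusted p = 0.00205). Of 18 cholesterol synthesis genes 4 were lower, among them Hmgcs1 (-0.25, adjusted p = 0.00775) and Mvd (-0.27, adjusted p = 0.0368). Over all tested genes 3.34% were lower, and the myelin count of 1 is near that share. Mvd lost its call in 7 of 16 alternative analyses and Hmgcs1 in 1, without RTR113609 replicate 4.

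Many of the remaining lists had few calls or none, where 5.29% of all tested genes were called. The neuron, reactive astrocyte and mural lists held a larger share of calls than that. Of 10 neuron genes the neurofilament chains Nefm (-0.28) and Nefl (-0.18) and the tubulin Tubb3 (-0.15) were lower, and their calls were lost in 2, 7 and 11 of 16 alternative analyses. Of 16 immediate early genes Bdnf was lower (-0.39, adjusted p = 0.011 in edgeR), a call lost without RTR113643 replicate 1 or RTR113609 replicate 3, and 15 of the 16 did not pass. Only 1 of these 16 genes had a positive log2 fold change, and their median was -0.30. Of 20 reactive astrocyte genes 19 were tested, and 6 were higher, namely Cxcl10, Iigp1, Gbp2, H2-D1, H2-T23 and Serping1, all of them also on the interferon-related, class I, complement or chemokine lists, and Cp, the ferroxidase ceruloplasmin named after its values were seen, was lower (-0.35). Pdgfrb (-0.27, adjusted p = 0.000718) and Notch3 (-0.28, adjusted p = 0.0384) were lower among 8 mural genes, of which Notch3 lost its call in 9 of 16 alternative analyses. Nrn1 was lower among 12 excitatory cortical genes (-0.21), Slc6a13 among 9 fibroblast genes (-0.40) and Sesn2 on the p53 and the endoplasmic reticulum stress lists (-0.22), and Rarres2 was higher among 6 ependymal genes (0.54). Of these calls, Nrn1 was lost in 6 of 16 alternative analyses, Slc6a13 in 8 and Sesn2 in 9, and Rarres2 in 1, without RTR113609 replicate 3. No member passed in the lists for inhibitory neurons, striatal projection neurons, hypothalamus, thalamus, hippocampus, endothelium, choroid plexus, red blood cells, glucocorticoid response, mitochondrially encoded genes, delta protocadherins, monoamine genes or RNase H1 and RNA decay. Even so, all 10 striatal genes had a positive log2 fold change (median 0.20). All 8 choroid plexus genes (median -0.22) and all 5 red blood cell genes tested (median -0.35) had a negative one. The other lists without a call held members of both signs.

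Several genes were higher in RTR113609 than in RTR113643 and lay below saline in RTR113643, and were named after their values were seen. Abl1 (chr2:31688376-31804227, plus strand), a tyrosine kinase, had 76.3, 84.7, 79.3 and 76.9 CPM in RTR113609 and 50.4, 45.7, 58.7, 55.7 and 53.4 CPM in RTR113643. The RTR113609 libraries lay at the saline mean of 79.6 ± 2.06 CPM (SD, n = 5), and all of RTR113643 lay below (0.59 between the treatments, SE 0.050, edgeR adjusted p = 3.13e-11, and -0.59 against saline in RTR113643, adjusted p = 5.17e-11). Nudcd1 had 17.3, 15.4, 17.6 and 17.4 CPM in RTR113609 and 10.4, 7.92, 9.94, 11.2 and 12.1 CPM in RTR113643, again with no overlap (0.71, SE 0.097, adjusted p = 1.50e-06). Galnt6, an enzyme that starts O-linked glycans (0.63, adjusted p = 1.38e-08), Pibf1, a centrosomal protein (0.50, adjusted p = 2.07e-05), and Mvb12b, a subunit of the ESCRT-I sorting complex (0.34, adjusted p = 9.09e-07), were likewise lower in RTR113643 than in RTR113609 and saline by their means. So was Itm2b, the BRI2 precursor protein, with 688 ± 9.11 CPM (SD, n = 4) against 562 ± 41.3 CPM (SD, n = 5) and 669 ± 30.2 CPM (SD, n = 5) in saline (0.29, adjusted p = 4.52e-05).

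Other genes were below saline in both treatments and were likewise named after their values were seen. Pcdh9, an adhesion protein of the protocadherin family, had 72.02, 76.3, 84.6 and 81.4 CPM in RTR113609 and 88.1, 69.6, 80.1, 81.8 and 86.6 CPM in RTR113643, against 139 ± 12.2 CPM (SD, n = 5) in saline. The treatments overlapped, with a difference of -0.049 (SE 0.085, edgeR adjusted p = 0.84). The splicing regulator Rbm5 (0.14, SE 0.059, adjusted p = 0.191) and the endocytic scaffold Itsn1 (0.076, SE 0.058, adjusted p = 0.556) did not pass between the treatments, while both were called below saline in each. Col19a1, a collagen chain (-0.41 in RTR113609 and -0.89 in RTR113643), and Cntln, a centrosomal protein (-0.27 and -0.67), were called below saline in both and differed between them (0.48, adjusted p = 0.017, and 0.40, adjusted p = 0.000804).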

How the data were processed

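Each deposited file of the authors holds, per Ensembl gene, whole-number read counts, the gene width in bases and RPKM (reads divided by gene length and by sequencing depth). The aligner was GSNAP and the build GRCm38, per the submitters' processing notes. Versions, annotation, counter and strand setting were not stated, so overlapping genes on opposite strands and near-identical genes can exchange reads. The deposited RPKM served to check the denominator, of which the counts made up 86.1 to 88.2%. The labels give TruSeq Stranded mRNA as the kit.

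Of 52636 genes, 52403 had a symbol; 19246 passed filterByExpr, and 19211 of those had a position in GENCODE M21. Differences were tested with the two-sided quasi-likelihood test of edgeR 4.0.16 (R 4.3.3, TMM scaling, 1 design of 9 groups over 39 libraries), with Benjamini-Hochberg adjustment over all tested genes at 0.05; every adjusted p in the text is from this test unless another is named. SE is the log2 fold change over the square root of F. The test was checked on simulated counts. No libraries were identical.

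The members and 47 lists (592 genes, 590 found) were chosen with earlier results of these data known. Named by rule were Tmem106b, Grn, Tmem106a and Tmem106c, the 12 largest rises and 12 largest falls (at least 1 CPM in the higher group, no overlap, 3 predicted genes passed over) and up to 3 members per list by adjusted p, 85 genes in all, of which several are left out of the text. Ends of ranges and members given as not passing were named after their values were seen. Alternatives were DESeq2 1.42.0, voom of limma 3.58.1, median-of-ratios scaling, no filter, smaller fits, regional covariates and leaving out each library. Promoters came from RefSeq GRCm38.p6, with windows for 13050 of 19235 tested symbols.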

Additional observations from a re-analysis of the deposited data

Results flagged for a closer look

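In 8 of 170 sets examined (85 named genes in each of 2 groups), 1 library stood apart from the others of its group; chance flags about 1 in 20. In RTR113643 replicate 5, Ifit1 was 5.37 CPM against 2.96 to 3.50 CPM in the other 4 libraries, and Iigp1 was 3.13 CPM against 1.25 to 1.63 CPM. Both values stayed below all RTR113609 libraries. Ctnna2 was 118.4 CPM in RTR113643 replicate 2, against 138 to 141 CPM in the others. Kcnq3 was 255 CPM in RTR113643 replicate 1 (others 228 to 233 CPM), and Stab1 was 21.5 CPM in RTR113643 replicate 4 (others 24.2 to 25.3 CPM). In RTR113609 replicate 3, Gria4 was 81.7 CPM against 71.3 to 72.3 CPM and Rarres2, an ependymal marker, was 18.4 CPM against 12.8 to 13.8 CPM. Fgfr3 was 100.1 CPM in RTR113609 replicate 1, against 117 to 120.3 CPM in the others. The part that these libraries play in the results was not tested beyond the fits without each library.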

How the results depend on the processing

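The 1019 called genes became 640 (247 higher, 393 lower) with only the 9 libraries in the fit, 583 of them shared with the 1019. Leaving out 1 library gave 664 to 1003 genes, 258 to 365 of them higher and 406 to 638 lower, with the lowest total without RTR113609 replicate 1. DESeq2 gave 1141, voom 1064, median-of-ratios scaling 1007, no filter 841, the fit with saline 797 and the regional covariates 1170, and the share of higher genes ranged from 35.2 to 38.9% over the alternatives. The Tmem106b log2 fold change kept its sign in all 16; it was -0.51 (adjusted p = 0.0621) in the fit of 9 libraries and -0.66 to -0.42 when 1 library was left out. Grn, far from the threshold throughout, changed sign without RTR113609 replicate 2 (-0.034) and without RTR113643 replicate 5 (-0.044), with a range of -0.044 to 0.076 over the fits without 1 library. Over the 16 alternatives the interferon count stayed at 32, the guanylate-binding count was 10 to 12, the MHC class I count 12 to 17, the count of very long list members lower 15 to 17, that of genes over 1000 kb lower 37 to 43 and that of genes from 300 to 1000 kb lower 113 to 199. Of 82 named genes called, 62 kept their call in all alternatives, and 20 lost it at least once. The causes were not tested. Depth limits genes near 0.1 CPM and the interferon ligands. No paired analysis was possible because the labels give no replicate numbers or pairing, and the numbers used here only follow the order of the samples.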
